A study of Mus musculus with 21 samples.

Results

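Of the 18193 mouse genes measured, 4 were followed across all conditions: Lhx1, its divergent neighbour Lhx1os, Plcd4 and Papss2. They were chosen by measured values of this same study, because the difference between BIO and DMSO was larger in aggregated than in dispersed cells. They are represented by 10 of the 34945 probe sets that carry a single gene symbol, 2 for Lhx1, 1 for Lhx1os, 3 for Plcd4 and 4 for Papss2. Values from aggregated and dispersed cells at 24 h are therefore given as a description with no test. Tests compare groups among the 9 arrays that the choice did not use, which are those of fresh cells and of aggregates at 48 h. Their estimate of spread, the normalization and the probe set of each gene drew on all 21 arrays. The p-values are therefore not fully separate from the choice of genes.

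The cells were nephron progenitors of embryonic mouse kidneys at E16.5, sorted by flow cytometry for the GFP of a Six2GFPcre BAC transgene on a mixed strain background. Every group, the fresh cells included, carries this transgene, in which Six2 regulatory sequence drives a fusion of GFP and Cre, so the sort follows the transgene and not the Six2 protein. BIO, an inhibitor of the kinase GSK3 that stabilises beta-catenin, was given at 4 µM, and its controls received the same volume of DMSO, all in medium with 10% serum and at 40000 cells per sample. At 24 h there were aggregates in BIO, aggregates in DMSO, dispersed cells in BIO and dispersed cells in DMSO. At 48 h there were aggregates with BIO on both days, called BIO kept, and aggregates with BIO on the first day and DMSO on the second, called BIO withdrawn. Freshly sorted cells were the remaining group. Each of the 7 groups had 3 arrays, and no group of aggregates in DMSO alone for 48 h was analysed here, so differences from fresh cells also carry time in culture. The labels speak of biological replicates without naming separate litters, sorts or cultures, so each p-value reflects array-to-array spread alone, part or all of which may be technical.

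In the developing kidney, Wnt signals from the ureteric bud act through beta-catenin on the progenitors around it, which condense into pretubular aggregates and then become the epithelial renal vesicle. Lhx1 encodes a LIM-homeodomain transcription factor of the pretubular aggregate, the renal vesicle and its derivatives, and the kidney does not form normally without it. Lhx1os is a long non-coding RNA transcribed away from Lhx1 on the opposite strand. Plcd4 encodes a delta-class phospholipase C, an enzyme that splits the membrane lipid PIP2 into diacylglycerol and inositol trisphosphate. Papss2 encodes an enzyme that makes PAPS, the activated sulfate that sulfotransferases attach to heparan sulfate, chondroitin sulfate and other molecules.

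The start regions are shown because Lhx1 and Lhx1os lie head to head and moved together on these arrays, and because beta-catenin acts on DNA through TCF/LEF factors. RefSeq sequences on GRCm38.p6, 250 bases before to 50 after each annotated start, were found for 4 of 4 genes, in 6 windows. The Lhx1 window is chr11:84525485-84525784 on the minus strand. Its capitals mark the 125 bases between the annotated starts of Lhx1os and Lhx1, so the lower-case stretch before them covers the start of Lhx1os on the other strand. The second Plcd4 window is chr1:74544110-74544409 on the plus strand, and its capitals mark a TCF/LEF heptamer.
Lhx1: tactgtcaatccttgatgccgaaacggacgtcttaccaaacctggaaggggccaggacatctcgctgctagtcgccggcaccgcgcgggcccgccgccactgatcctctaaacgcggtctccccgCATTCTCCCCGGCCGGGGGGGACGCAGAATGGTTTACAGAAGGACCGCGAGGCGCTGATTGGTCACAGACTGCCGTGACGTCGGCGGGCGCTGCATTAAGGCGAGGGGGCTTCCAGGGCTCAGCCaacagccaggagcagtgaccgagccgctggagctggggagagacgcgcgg
Plcd4: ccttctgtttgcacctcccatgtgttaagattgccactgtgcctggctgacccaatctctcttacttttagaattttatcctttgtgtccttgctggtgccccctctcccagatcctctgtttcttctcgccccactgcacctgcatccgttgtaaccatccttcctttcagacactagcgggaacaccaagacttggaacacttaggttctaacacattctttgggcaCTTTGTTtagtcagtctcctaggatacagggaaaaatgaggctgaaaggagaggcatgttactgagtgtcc
The Lhx1 window holds 31 CpG dinucleotides, more than 89.4% of all windows, whose median is 7. The 4 heptamers searched were CTTTGAA and CTTTGAT as well as CTTTGTA and CTTTGTT, on both strands, with overlapping matches allowed. The search found 1 match, CTTTGTT at position -21 from the second Plcd4 start, and none in the other windows, those of Lhx1, Lhx1os and Papss2 among them. Of 32817 mouse windows of the same length, 16.9% hold at least 1 of these heptamers. A match is a run of letters and not a shown binding site, and a window without one says nothing about TCF/LEF factors at these genes.

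Signals are given after quantile normalization, as linear signal intensity, and differences as log2(signal + 1) ± SE from limma, with n = 3 arrays in each group. Background was a signal of 41.8, the level under which 95% of 27 bacterial control probe sets fell. Where 1 group mean lay below it, each of its arrays below background was raised to that level, and the fold is given as at least so many fold. Levels of different probe sets are not comparable with each other.

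Lhx1 was below background in every dispersed group and in aggregates in DMSO, and above it wherever aggregates had received BIO. In aggregates at 24 h its signals were 198, 345 and 177 with BIO, against 2.74, 3.27 and 3.80 with DMSO. In dispersed cells at 24 h they were 4.82, 5.40 and 5.58 with BIO, against 5.04, 4.44 and 2.80 with DMSO. All 3 aggregate arrays with BIO lay above background and all 9 other arrays of the 24 h cultures lay far below it. The aggregates with BIO were at least 5.38-fold above the aggregates with DMSO, and no fold is given for dispersed cells, where both groups were below background. No size is given for the difference between the BIO effects, since 3 of its 4 groups were below background. These are whole-culture RNA samples, in which fewer cells of a type and less RNA per cell cannot be told apart.

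On the second day Lhx1 was highest where BIO had been taken away. Signals were 192, 214 and 461 with BIO kept, 934, 1243 and 1886 with BIO withdrawn, and 289, 292 and 280 in fresh cells. All 3 arrays with BIO withdrawn lay above all arrays of the other groups, while BIO kept and fresh cells overlapped. Lhx1 was 4.85-fold lower with BIO kept than with BIO withdrawn (log2 difference -2.28 ± 0.32, limma adjusted p = 5.97e-05), and lower on all 3 arrays. With BIO withdrawn it was 4.51-fold higher than in fresh cells (2.17 ± 0.32, limma adjusted p = 8.63e-05). BIO kept and fresh cells differed by -0.10 ± 0.32 (limma adjusted p = 0.839).

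Lhx1os followed the order of Lhx1 in aggregates. Its signals in aggregates at 24 h were 75.2, 151 and 77.5 with BIO, against 1.83, 6.01 and 5.43 with DMSO. In dispersed cells they were 16.1, 26.2 and 18.7 with BIO, against 18.7, 18.6 and 32.6 with DMSO. The aggregates with BIO were the only 24 h cultures above background, at least 2.26-fold above the aggregates with DMSO. The aggregates in DMSO also lay below all arrays of dispersed cells in DMSO, although every array of both groups was below background.

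At 48 h the Lhx1os signals were 98.7, 174 and 176 with BIO kept, 372, 510 and 692 with BIO withdrawn, and 71.1, 90.3 and 78.5 in fresh cells. The 3 groups did not overlap. Lhx1os was 3.50-fold lower with BIO kept than with BIO withdrawn (-1.81 ± 0.37, limma adjusted p = 0.00219), and 6.32-fold higher with BIO withdrawn than in fresh cells (2.66 ± 0.37, limma adjusted p = 5.81e-05). With BIO kept it was above fresh cells by 0.85 ± 0.37 on the log2 scale, higher on all 3 arrays, without passing the threshold (limma adjusted p = 0.0941). That call passed with log2(signal + 16), at 0.75 (limma adjusted p = 0.0325), and without replicate 1 of BIO kept, at 1.13 (limma adjusted p = 0.0461). The array positions of the Lhx1 and Lhx1os probes are not stated in any source used, so signal shared between the divergent transcripts was not tested.

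Plcd4 had a single high group. Its signals in aggregates at 24 h were 339, 210 and 314 with BIO, against 21.01, 17.8 and 13.3 with DMSO. In dispersed cells they were 26.3, 19.2 and 18.2 with BIO, against 14.8, 16.7 and 19.6 with DMSO. The aggregates with BIO were at least 6.60-fold above the aggregates with DMSO, and the other 24 h groups were below background.

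A day later the Plcd4 signal was back below background whether or not BIO stayed. Signals were 19.3, 16.6 and 13.6 with BIO kept, 14.7, 18.2 and 13.4 with BIO withdrawn, and 56.2, 18.4 and 22.3 in fresh cells. The fresh array at 56.2 was the only one of these 9 above background. The aggregates with BIO kept for 48 h were at least 6.60-fold below those with BIO at 24 h, a description in which the 24 h arrays had been used for the choice. None of the tests among the 48 h groups and fresh cells passed, and all group means lay below background. The log2 differences were 0.09 ± 0.32 for BIO kept against BIO withdrawn (limma adjusted p = 0.89), -0.77 ± 0.32 for BIO kept against fresh cells (limma adjusted p = 0.0766) and -0.86 ± 0.32 for BIO withdrawn against fresh cells (limma adjusted p = 0.0606). Without fresh replicate 2 both differences from fresh cells passed, at -1.07 for BIO kept (limma adjusted p = 0.0207) and -1.16 for BIO withdrawn (limma adjusted p = 0.0178). Without fresh replicate 1, the array at 56.2, they were -0.29 for BIO kept and -0.38 for BIO withdrawn. The first also passed with the deposited scaling, at -0.91 (limma adjusted p = 0.0373), and the second with dim genes left out of the test (limma adjusted p = 0.0493).

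The only high Plcd4 arrays were also those with the lowest 3' beta-actin control. This control read 2669 to 5410 in aggregates with BIO at 24 h, with a mean of 3706 ± 1487 (SD, n = 3), against 10556 ± 2545 in aggregates with DMSO, and every other array of the series read at least 6344. The Gapdh 3' over 5' ratio, a measure of RNA or amplification length, was 13.4 ± 1.9 in aggregates with BIO and 14.2 ± 1.0 in aggregates with DMSO. In dispersed cells at 24 h it was lower, at 9.8 ± 0.6 with BIO and 12.1 ± 0.5 with DMSO. Median deposited signals averaged 90.7 with BIO and 93.3 with DMSO in these aggregates, against 104.1 and 103.6 in dispersed cells. The Gapdh ratio and the median signal thus differed between the arrangements within each treatment. The actin control set apart only aggregates with BIO at 24 h. In dispersed cells at 24 h it averaged 8929 ± 296 with BIO and 12104 ± 180.5 with DMSO (SD, n = 3). The part of these array properties in the values of the 4 genes at 24 h was not tested.

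Papss2 stood out in another way. Its signals in aggregates at 24 h were 342, 466 and 275 with BIO, against 158, 226 and 314 with DMSO, and these groups overlapped. In dispersed cells they were 44.6, 95.2 and 67.9 with BIO, against 240, 289 and 314 with DMSO, with all BIO arrays lower. The log2 difference between BIO and DMSO was 0.65 ± 0.29 in aggregates and -2.06 ± 0.29 in dispersed cells. The difference between the BIO effects, 2.72 ± 0.41, thus came mostly from a low level in dispersed cells with BIO and not from a high level in aggregates.

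Papss2 was highest at 48 h. Its signals were 3145, 3104 and 3289 with BIO kept, 2279, 1462 and 1306 with BIO withdrawn, and 289, 236 and 234 in fresh cells. The 3 groups did not overlap. Papss2 was 12.6-fold higher with BIO kept than in fresh cells (3.65 ± 0.29, limma adjusted p = 6.22e-08), and 6.46-fold higher with BIO withdrawn than in fresh cells (2.69 ± 0.29, limma adjusted p = 3.12e-06). BIO kept was 1.95-fold above BIO withdrawn (0.96 ± 0.29, limma adjusted p = 0.0253), the opposite direction to Lhx1 and Lhx1os. This last call was lost with the mean of all Papss2 probe sets, at 0.57 (limma adjusted p = 0.299), and after adjusting for the 3' beta-actin control, at 0.67 (limma adjusted p = 0.187). It was also lost without replicate 1, 2 or 3 of BIO kept, at 0.97, 0.98 and 0.94, and without replicate 2 or 3 of BIO withdrawn, at 0.88 and 0.80, with limma adjusted p of 0.055 to 0.101.

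**Figure D1:**
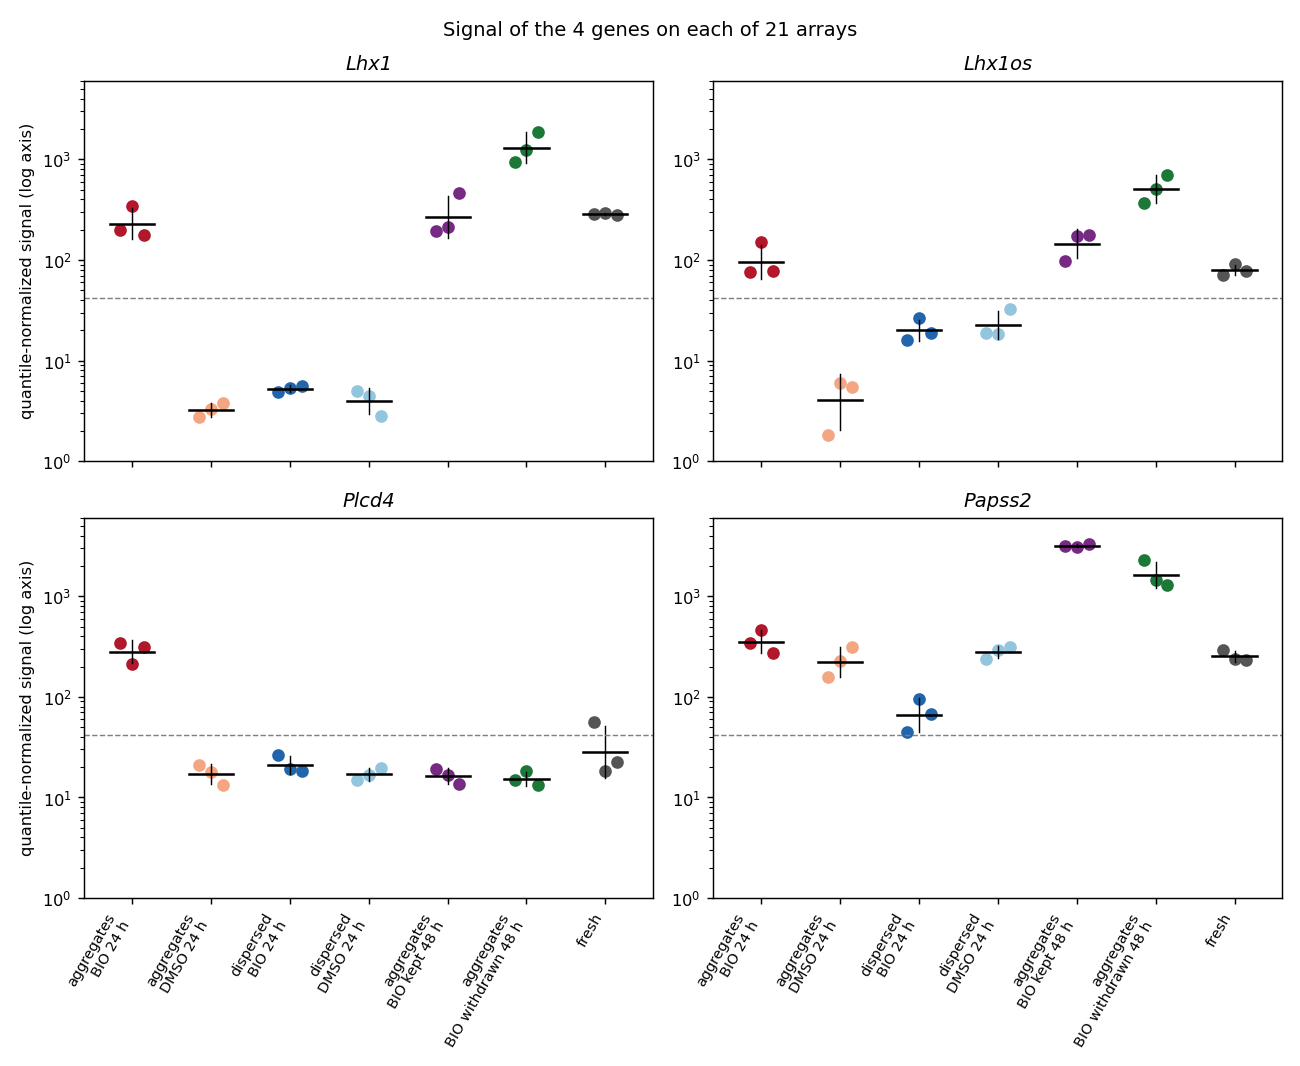
Quantile-normalized signal (log axis) of the highest-mean probe set of Lhx1, Lhx1os, Plcd4 and Papss2 on each of 21 arrays, by group. Points are arrays, thick lines the group mean and thin lines 1 SD (both taken on the log2 scale, n = 3), and the dashed line is background at 41.8. Lhx1 and Lhx1os peak with BIO withdrawn, at up to 1886 and 692, Plcd4 is high only in aggregates with BIO at 24 h, at 210 to 339, and Papss2 peaks with BIO kept, at 3104 to 3289.

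Among these 3 comparisons, the members' calls can be set against the share of all genes called. BIO kept against BIO withdrawn changed 3711 of 18193 genes (20.4%) and 3 of the 4 genes. BIO kept against fresh cells changed 6068 genes (33.4%) and 1 of the 4, Papss2. BIO withdrawn against fresh cells changed 4602 genes (25.3%) and 3 of the 4. Calls are adjusted p under 0.05 in either direction, and the comparisons share arrays with each other. For the contrasts that chose the genes, BIO against DMSO called 5455 genes in aggregates (30.0%, with 17.5% raised and 12.5% lowered). In dispersed cells it called 5230 (28.7%, with 15.3% raised and 13.4% lowered), and the difference between these BIO effects called 285 (1.57%). That last count moved with single arrays, to 171 without replicate 1 of aggregates with BIO, 177 without replicate 3 of dispersed cells in DMSO and 180 without replicate 3 of dispersed cells with BIO. It was 120 after adjusting for the actin control, 150 with the mean of probe sets and 545 with array weights. The 5455 genes in aggregates became 2405 after adjusting for the actin control. When each fit held only the arrays compared, the counts were 1820 for BIO kept against BIO withdrawn, 3958 for BIO kept against fresh cells and 2870 for BIO withdrawn against fresh cells. Nothing is read from where the 4 genes stand in these last shares.

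Ordered from high to low mean log2 signal, the Lhx1 levels ran BIO withdrawn, fresh, BIO kept, aggregates with BIO at 24 h, then the other 24 h groups. Fresh cells, BIO kept and aggregates with BIO at 24 h overlapped, and gaps lay above and below the middle 3. Of the last 3 groups, all below background, each overlapped its neighbour, but dispersed cells with BIO lay above all arrays of aggregates with DMSO. For Lhx1os, BIO withdrawn came first and apart, followed by BIO kept, aggregates with BIO at 24 h and fresh cells, in which each neighbour overlapped the next. Both dispersed groups followed, and aggregates in DMSO were last and apart from them. For Plcd4 only aggregates with BIO at 24 h stood apart from the group below. For Papss2, BIO kept and BIO withdrawn stood apart at the top and dispersed cells with BIO at the bottom, with 4 overlapping groups between them.

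**Figure D2:**
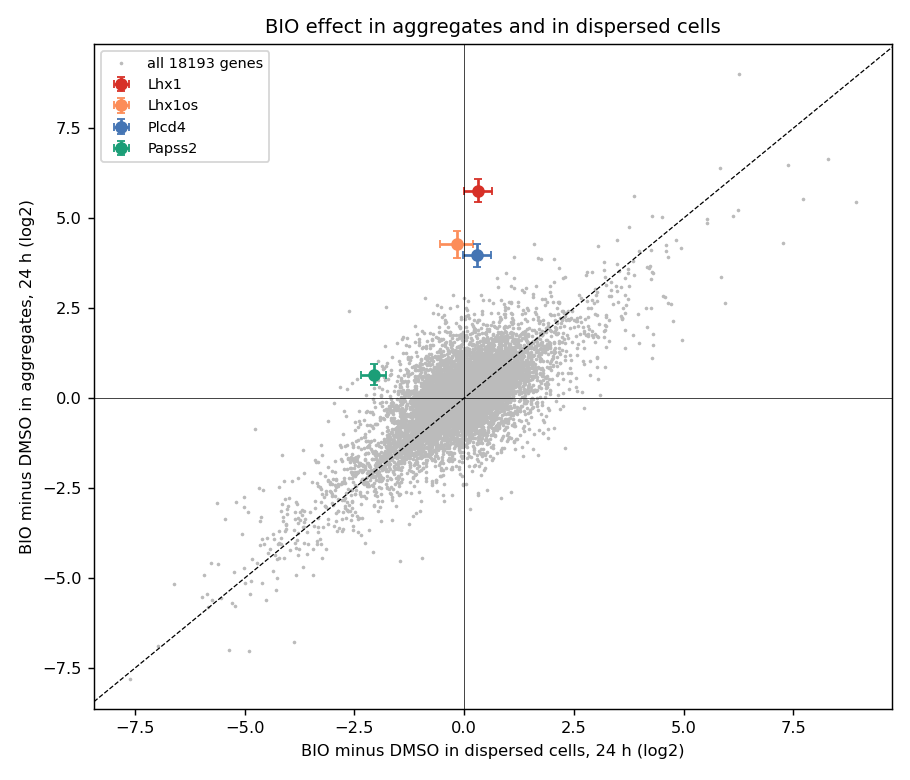
Log2 difference between BIO and DMSO at 24 h in aggregates (vertical axis) against dispersed cells (horizontal axis) for 18193 genes, with the 4 genes in colour and their SE as bars, n = 3 arrays per group. The dashed line marks equal effects. The positions of Lhx1, Lhx1os and Plcd4 rest on levels below background in 3 of 4 groups, so they mark no measured size, whereas Papss2 lies at -2.06 in dispersed cells and 0.65 in aggregates.

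The 4 genes were chosen on the difference between the BIO effects. The other 6 of the 10 genes with the largest fitted values of it, among 117 called genes with an assigned symbol and above background in aggregates with BIO, are given as a description. They were Lama4, which encodes a laminin chain of basement membranes, at 3.58 ± 0.59, Frat2 at 2.59 ± 0.48, Colec11 at 2.47 ± 0.45, and Rassf6, Svopl and Sco2, each with at least 1 group below background. Lama4 resembled Lhx1, with a BIO effect of 3.97 in aggregates and 0.40 in dispersed cells. Rassf6 and Sco2 resembled Papss2 in that dispersed cells were lower with BIO, with mean signals of 24.0 and 37.5 there, below background, against 84.7 and 155 with DMSO. Frat2, which encodes a GSK3-binding protein, was lower with BIO in both arrangements, with mean signals of 171 with BIO against 492 with DMSO in aggregates and 46.7 with BIO against 804 with DMSO in dispersed cells. Svopl was higher with BIO in both, at 1248 with BIO against 1.43 with DMSO in aggregates and 242 with BIO against 2.16 with DMSO in dispersed cells, where both DMSO means were below background.

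The other probe sets of the 4 genes were mostly below background at 24 h. The second Lhx1 probe set, 1421951_at, gave signals of 38.7, 68.0 and 38.0 in aggregates with BIO at 24 h, against 17.2, 15.1 and 9.75 with DMSO, and 12.0, 15.1 and 25.0 in dispersed cells with BIO, against 3.60, 13.0 and 5.47 with DMSO. Of these 12 arrays 11 were below background, so it does not measure the BIO effects at 24 h. At 48 h it repeated the main probe set, with 161, 42.2 and 89.3 for BIO kept, 570, 562 and 877 for BIO withdrawn, and 108, 140 and 144 for fresh cells. BIO kept was 7.65-fold below BIO withdrawn (-2.93 ± 0.46, limma adjusted p = 0.000256, over all probe sets) and BIO withdrawn was 5.02-fold above fresh cells (2.33 ± 0.46, limma adjusted p = 0.00163).

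The Plcd4 pattern rested on 1 probe set, 1437030_at, which has the highest mean of the 3, its high group included. Probe set 1432928_at gave 46.6, 10.9 and 34.7 in aggregates with BIO at 24 h, against 69.4, 30.0 and 40.5 with DMSO, and 1432927_at gave 68.8, 11.5 and 33.3, against 13.8, 51.8 and 70.4. Neither set aggregates with BIO apart, and only 4 and 3 of their 12 arrays at 24 h were above background.

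For Papss2, the main probe set 1434510_at was above background on all 12 arrays at 24 h. Of those arrays 2 were above background in 1421987_at, 1 in 1421989_s_at and 0 in 1421988_at, which was below background on all 21 arrays, so these 3 do not measure the BIO effects at 24 h. The rise at 48 h appeared in 3 of 4 probe sets. In 1421987_at BIO kept was at least 3.27-fold and BIO withdrawn at least 2.97-fold above fresh cells (limma adjusted p = 0.0152 and 0.0273, over all probe sets). In 1421989_s_at these folds were at least 5.07 and at least 2.87 (limma adjusted p = 0.00207 and 0.0259). Neither called BIO kept against BIO withdrawn, with 0.14 ± 0.86 (limma adjusted p = 0.945) and 0.82 ± 0.61 (limma adjusted p = 0.436).

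**Figure D3:**
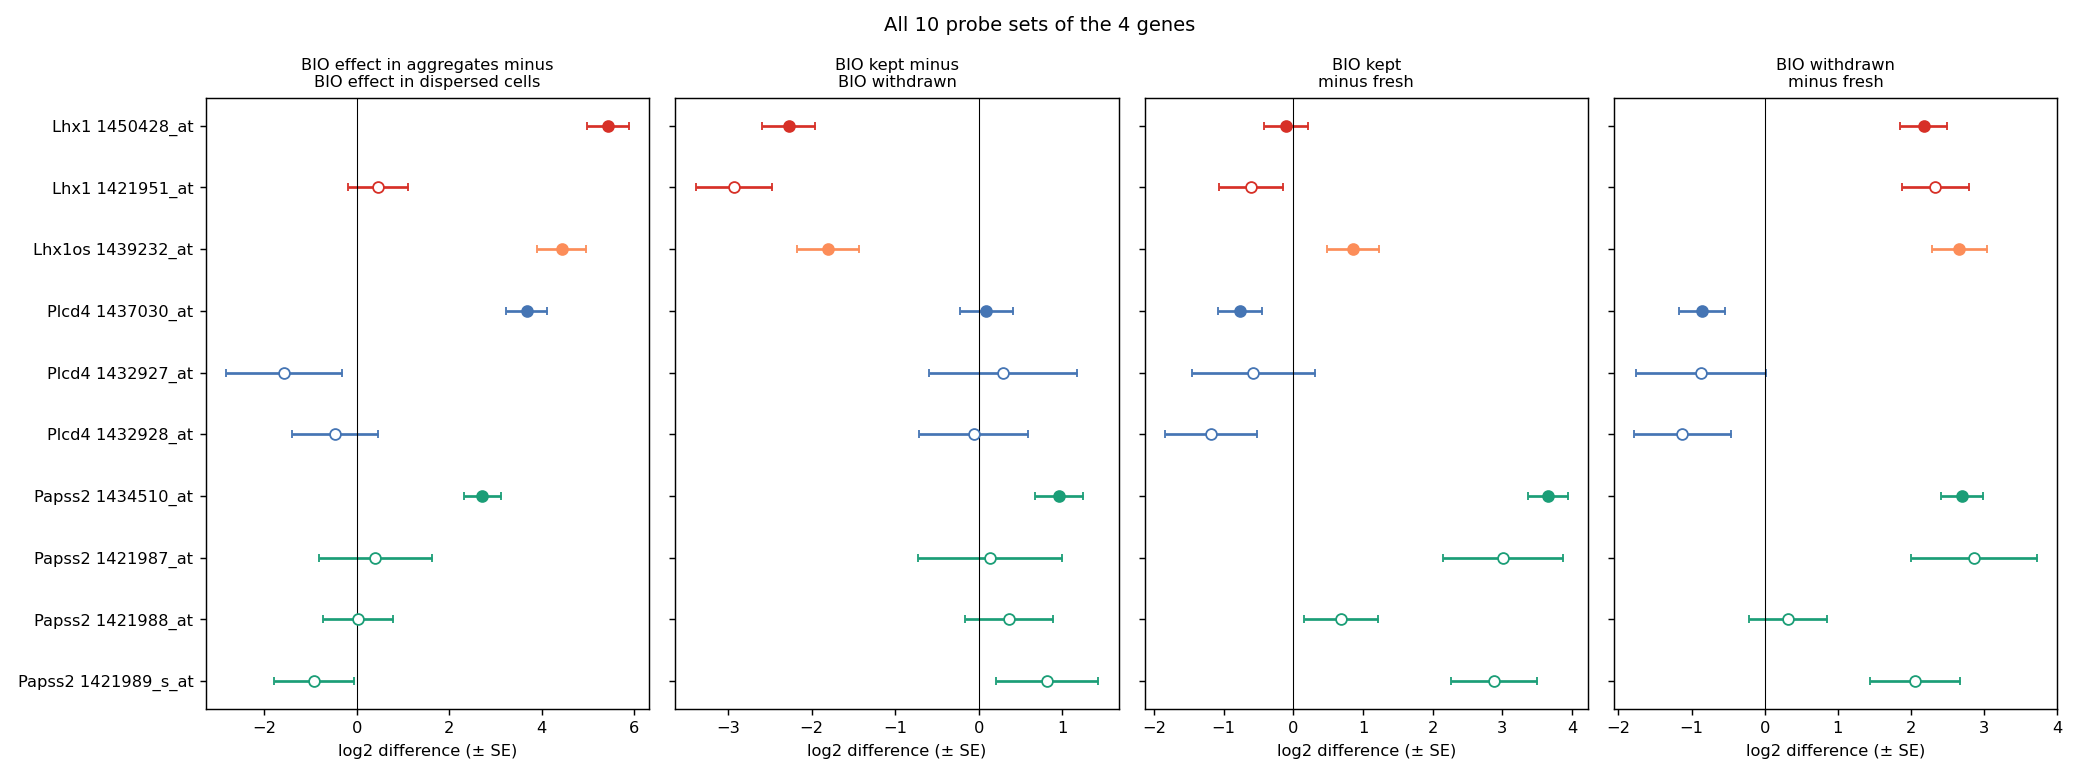
Log2 differences ± SE (n = 3 arrays per group) of all 10 probe sets of the 4 genes, for the difference between BIO effects at 24 h and for the 3 comparisons among 48 h aggregates and fresh cells. Filled points are the highest-mean probe set of each gene and open points the others. In the first panel the open points, and all filled points but that of Papss2, rest on groups below background and mark no measured size. The open Lhx1 point and 2 open Papss2 points accompany the filled ones in the panels with fresh cells.

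Across the 21 arrays Lhx1 and Lhx1os correlated at r = 0.92, Lhx1 and Papss2 at 0.68, and Lhx1os and Papss2 at 0.70. Plcd4 correlated at 0.23 with Lhx1. These values describe 7 groups of 3 arrays, which share platform and amplification. They include the 12 arrays at 24 h on which the genes were chosen. Lhx1, Lhx1os and Plcd4 were above background on only 3 of those 12, so each r is a description that partly follows from the choice. Among 14196 other genes above background in at least 1 group, the 5 most like Lhx1 were Lama4 (r = 0.97), St3gal6 (0.96), Inpp5f (0.95), Pax8 (0.94) and Map3k5 (0.94). Mean signals of Lama4 were 803 with BIO and 54.9 with DMSO in aggregates at 24 h, and 1092 with BIO kept, 2952 with BIO withdrawn and 834 in fresh cells. Pax8, a paired-box factor of the renal vesicle, was at 872 with BIO and 373 with DMSO in aggregates, and at 652 with BIO kept, 1935 with BIO withdrawn and 953 in fresh cells.

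Lhx1os was nearest to Lama4 (r = 0.94), Lhx1 (0.92), Naaa (0.90), St3gal6 (0.90) and Emx2 (0.89), a homeobox gene needed for kidney formation. Plcd4 was nearest to Neil3 (0.89), a DNA repair glycosylase gene, Haus5 (0.87), Psrc1 (0.87), Mrps30 (0.86) and Cox6b2 (0.86). Haus5 and Psrc1 encode proteins of the mitotic spindle. All 5 had their highest mean in aggregates with BIO at 24 h, Neil3 at 710 with BIO and 262 with DMSO. This peak follows largely from their choice by r with Plcd4, which was high in that group alone, so nothing is read from it. Papss2 was nearest to Prickle1 (0.94), a planar polarity gene, Gata2 (0.92), Sema5a (0.92), Lypd6b (0.92) and Zcchc12 (0.91). Lypd6b was at 1294 with BIO kept, 478 with BIO withdrawn and 103 in fresh cells.

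**Figure D4:**
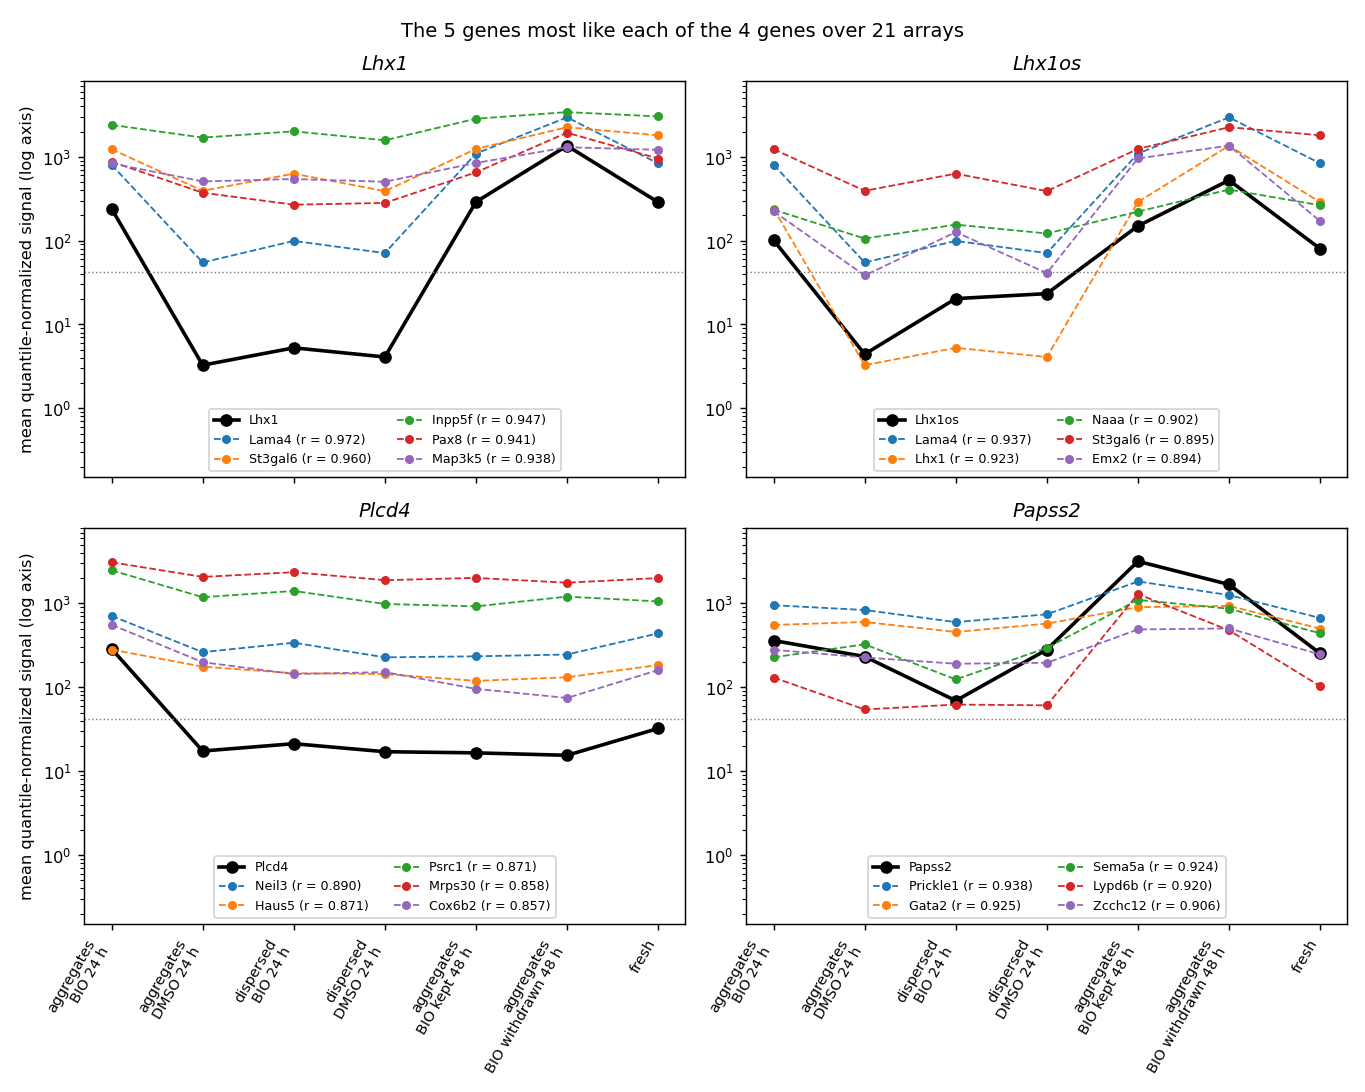
Mean quantile-normalized signal (log axis, n = 3 arrays) by group for each of the 4 genes (black) and the 5 genes with the highest Pearson r over 21 arrays (colours), with background dotted. Lines only join the points of a gene. Lama4 shares the high groups of Lhx1, with means of 803, 1092, 2952 and 834 where Lhx1 is above background.

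The genes next to the 4 genes in the RefSeq order of GRCm38.p6 were read for the same comparisons where a probe set carried their name. Beside Lhx1, Aatf had a difference between BIO effects of -0.13 ± 0.17 (limma adjusted p = 0.829) and Mrm1 of 0.68 ± 0.24 (limma adjusted p = 0.244). BIO kept against BIO withdrawn gave -0.12 ± 0.12 for Aatf (limma adjusted p = 0.551) and 0.05 ± 0.17 for Mrm1 (limma adjusted p = 0.878). Around Plcd4, the genes Vil1, Usp37, Cnot9, Zfp142, Bcs1l and Rnf25 gave differences between BIO effects of -0.40 to 0.47, and around Papss2, Minpp1 and Atad1 gave -0.07 and -0.05, none of which passed. The highest, 0.47 ± 1.11, was that of Vil1, whose group means were all below background, so it marks no measured size.

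Some of these neighbours passed in other comparisons. Aatf was higher with BIO kept (0.36, limma adjusted p = 0.0293) and with BIO withdrawn (0.48, limma adjusted p = 0.00698) than in fresh cells. It was also higher with BIO than with DMSO, by 0.42 in aggregates (limma adjusted p = 0.0119) and 0.55 in dispersed cells (limma adjusted p = 0.00187). Mrm1 was higher with BIO in aggregates (0.64, limma adjusted p = 0.00929), with a value of -0.03 in dispersed cells (limma adjusted p = 0.919). Of the neighbours of Plcd4, Usp37 was lower with BIO kept (-0.70, limma adjusted p = 9.65e-05) and with BIO withdrawn (-0.55, limma adjusted p = 0.00131) than in fresh cells, and higher with BIO in dispersed cells (0.44, limma adjusted p = 0.00588). Cnot9 was higher with BIO in aggregates (0.58, limma adjusted p = 0.00765). Zfp142 was 0.24 higher with BIO kept than with BIO withdrawn (limma adjusted p = 0.0379) and than in fresh cells (limma adjusted p = 0.0238), and 0.21 and 0.35 higher with BIO in aggregates and in dispersed cells (limma adjusted p = 0.0484 and 0.00253). Bcs1l, Rnf25, Minpp1 and Atad1 passed in none of the 6 comparisons, and neither did Vil1, which was below background in every group.

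Other genes of the pretubular aggregate and renal vesicle were taken from a list of 19, of which 17 were measured. With BIO kept against BIO withdrawn, 6 fell and 2 rose, at a median of -0.21 against 0.06 for all genes. Of all genes 9.3% fell and 11.1% rose. The cadherin gene Cdh6 was 8.31-fold lower (-3.05 ± 0.11, limma adjusted p = 2.71e-11), the Wnt-binding gene Sfrp2 8.26-fold lower (-3.05 ± 0.17, limma adjusted p = 2.98e-09) and the Notch ligand gene Dll1 3.50-fold lower (-1.81 ± 0.23, limma adjusted p = 2.4e-05), the direction of Lhx1. Cxcr4, a chemokine receptor gene, was at least 14.0-fold higher (limma adjusted p = 5.57e-05). Wnt4, which drives the step to epithelium, had a mean signal of 5076 with BIO kept and 4163 with BIO withdrawn and did not pass.

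Against fresh cells, BIO withdrawn raised 10 of the 17 and lowered 1, at a median of 1.10 against 0.02 for all genes. Of all genes 13.2% rose and 12.1% fell. Emx2 was 7.75-fold (2.95 ± 0.27), Cdh6 5.12-fold (2.36 ± 0.11) and Jag1, a Notch ligand gene, 3.78-fold higher (1.92 ± 0.21), and Cxcr4 at least 14.0-fold lower, with limma adjusted p of 4.97e-05 or less. BIO kept raised 7 and lowered 4, at a median of 0.04 against 0.08. Emx2 was 5.60-fold (2.48 ± 0.27), Greb1 3.89-fold (1.96 ± 0.43) and Jag1 3.45-fold higher (1.79 ± 0.21), while Fgf8, a growth factor gene that Lhx1 expression depends on, was called with both groups below background (limma adjusted p = 0.00374).

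At 24 h, BIO raised 11 and lowered 1 of the 17 in aggregates, at a median of 1.22 against 0.09 for all genes, and raised 6 and lowered 1 in dispersed cells, at a median of 0.09 against 0.02. Of all genes 17.5% rose and 12.5% fell in aggregates, and 15.3% rose and 13.4% fell in dispersed cells. Cxcr4 was 33.6-fold higher in aggregates and 19.4-fold in dispersed cells, Wnt4 9.35-fold and 10.2-fold, and Greb1 6.25-fold and 7.74-fold. The difference between BIO effects was called for 4 of 17, and for 1.57% of all genes. Bmp2 differed by 1.87 ± 0.19 (limma adjusted p = 0.000123) and Pax8 by 1.29 ± 0.16 (limma adjusted p = 0.000552), in the direction of Lhx1, and Cdh4 and Cdh6 by -0.88 ± 0.18 and -0.83 ± 0.16. Wnt4 averaged 4943 ± 790 in aggregates with BIO and 4864 ± 327 in dispersed cells with BIO (SD, n = 3). Lhx1 averaged 240 ± 92 and 5.26 ± 0.40 in the same samples (SD, n = 3).

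**Figure D5:**
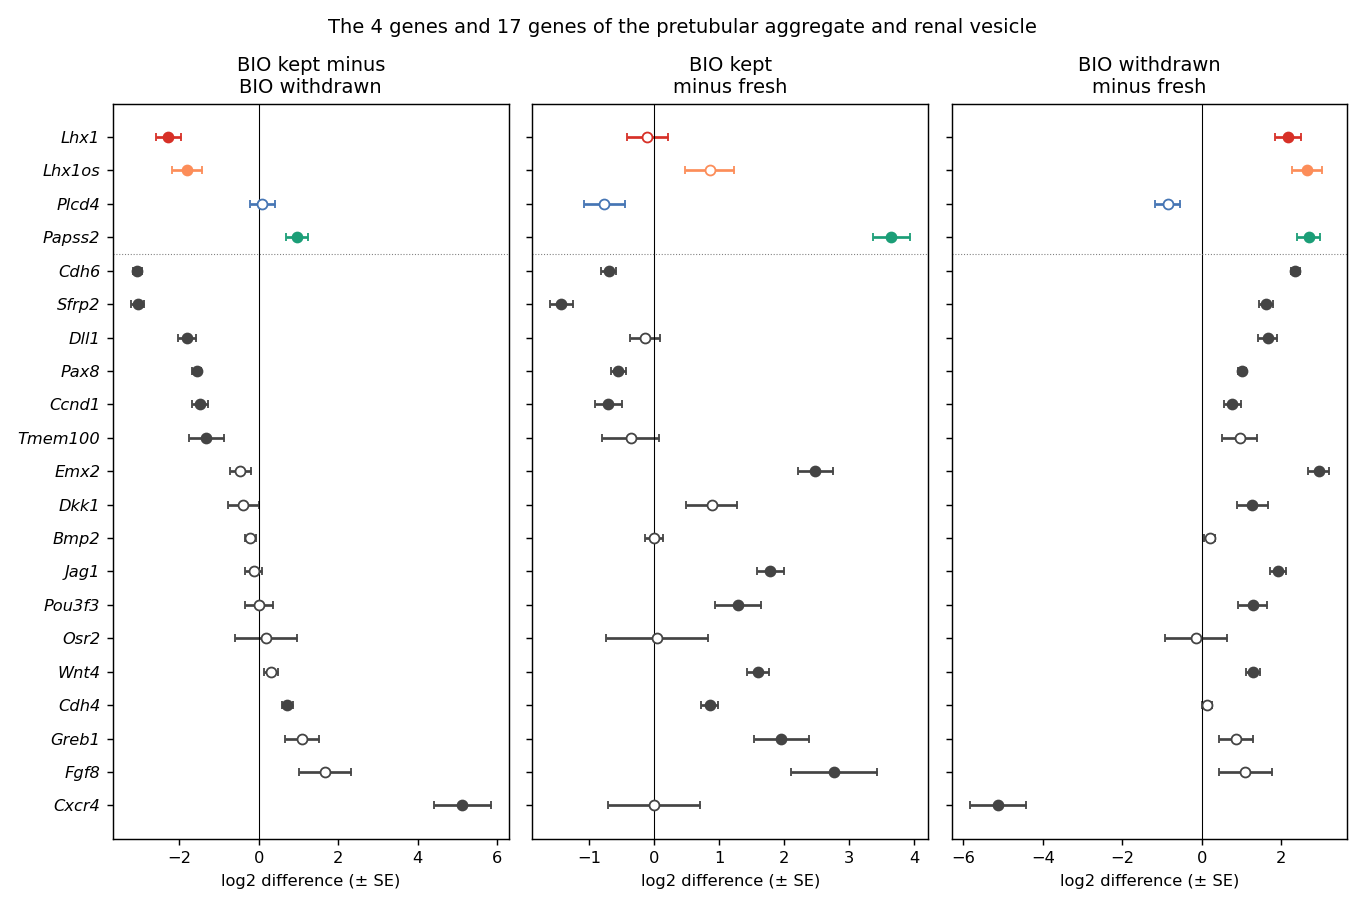
Log2 differences ± SE (n = 3 arrays per group) of the 4 genes (colours, above the dotted line) and of 17 genes of the pretubular aggregate and renal vesicle (grey), with filled points for limma adjusted p under 0.05. Cdh6, Sfrp2, Dll1, Pax8 and Ccnd1 share with Lhx1 a fall with BIO kept against BIO withdrawn and a rise with BIO withdrawn against fresh cells, and Cxcr4 shows the opposite of both.

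Of the LIM-homeodomain family other than Lhx1 and its cofactors, 21 of 21 were measured. With BIO kept against BIO withdrawn 2 rose and 1 fell, at a median of 0.06 against 0.06 for all genes, of which 11.1% rose and 9.3% fell. Ssbp2, which encodes a partner of the Ldb cofactors, was 4.04-fold lower (-2.02 ± 0.10, limma adjusted p = 1.23e-09) and Lmo2, a LIM-only gene, 3.09-fold higher (1.63 ± 0.20, limma adjusted p = 1.95e-05). Against fresh cells, BIO kept raised 2 and lowered 5, at a median of 0.05 against 0.08, and BIO withdrawn raised 0 and lowered 4, at 0.08 against 0.02. Ldb2 was 4.01-fold lower with BIO kept and 3.24-fold lower with BIO withdrawn. Lhx5, the closest paralog of Lhx1, did not pass in any of the 6 comparisons fitted, with mean signals between 25.4 and 45.5, above background in only 2 groups. Ldb1, the main cofactor of LIM-homeodomain proteins, did not pass either, with mean signals of 67.9 to 100.1. At 24 h BIO raised 1 and lowered 3 of the 21 in aggregates, at a median of -0.01 against 0.09, and raised 1 and lowered 4 in dispersed cells, at -0.08 against 0.02. Of all genes 17.5% rose and 12.5% fell in aggregates, and 15.3% rose and 13.4% fell in dispersed cells. Ssbp2 averaged 1618 with BIO and 4831 with DMSO in aggregates, 2.99-fold lower (-1.58 ± 0.10, limma adjusted p = 9.37e-09), and 985 with BIO and 4024 with DMSO in dispersed cells, 4.08-fold lower (limma adjusted p = 3.91e-10). The LIM-only gene Lmo4 was 2.54-fold lower in aggregates (limma adjusted p = 7.99e-07) and 2.37-fold lower in dispersed cells (limma adjusted p = 1.68e-06). Lmx1b, a LIM-homeodomain gene, was 1.98-fold and 2.76-fold higher (limma adjusted p = 0.000126 and 1.88e-06). Ssbp3 was lower with BIO than with DMSO in aggregates (-0.36 ± 0.12, limma adjusted p = 0.0296) and in dispersed cells (-0.85 ± 0.12, limma adjusted p = 3.47e-05). For the difference between BIO effects 0 of the 21 were called. The share over all genes was 1.57%, so nothing is read from this count.

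Of 20 phospholipase C and phosphoinositide genes other than Plcd4, 19 were measured. With BIO kept against BIO withdrawn 4 rose and 5 fell, at a median of 0.11 against 0.06 for all genes, of which 11.1% rose and 9.3% fell. Both other delta isozymes changed and in opposite directions. Plcd1 was at least 2.62-fold lower (limma adjusted p = 0.00843) and Plcd3 1.99-fold higher (0.995 ± 0.29, limma adjusted p = 0.0202). In aggregates at 24 h, BIO also lowered Plcd1 at least 3.15-fold and raised Plcd3 2.10-fold (1.07 ± 0.29, limma adjusted p = 0.00882), with 6 genes of the list raised and 4 lowered. In dispersed cells Plcd1 was at least 4.95-fold lower, Plcd3 had a difference of -0.37 ± 0.29 (limma adjusted p = 0.386), and 5 genes rose and 4 fell. Of all genes 17.5% rose and 12.5% fell in aggregates, and 15.3% rose and 13.4% fell in dispersed cells. Against fresh cells, 3 rose and 6 fell with BIO kept and 4 rose and 3 fell with BIO withdrawn. Plcb1 was 2.66-fold higher with BIO withdrawn than in fresh cells and 3.80-fold lower with BIO kept than with BIO withdrawn. For the difference between BIO effects 0 of 19 were called, and the value for Plcd3 was 1.44 ± 0.40 (limma adjusted p = 0.104). With 1.57% of all genes called, nothing is read from this count.

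Of 32 genes of sulfate activation and transfer other than Papss2, 31 were measured. BIO kept against fresh cells raised 13 and lowered 2, at a median of 0.23 against 0.08 for all genes, and BIO withdrawn against fresh cells raised 12 and lowered 3, at 0.20 against 0.02. The heparan sulfate 3-O-sulfotransferase gene Hs3st3b1 was 8.04-fold higher with BIO kept (3.01 ± 0.25, limma adjusted p = 1.32e-07) and 14.995-fold higher with BIO withdrawn (3.91 ± 0.25, limma adjusted p = 1.14e-08). Its relative Hs3st3a1 was at least 4.76-fold and at least 4.16-fold higher. The chondroitin sulfotransferase gene Chst15 was 3.61-fold and Chst11 2.87-fold higher with BIO kept, and 2.63-fold each with BIO withdrawn. With BIO kept against BIO withdrawn, 4 rose and 2 fell, where 11.1% of all genes rose and 9.3% fell. Chst1 was 4.48-fold lower (-2.16 ± 0.25, limma adjusted p = 9.27e-06). Papss1, the sister enzyme gene of Papss2, had mean signals of 3144 to 3580 in the 7 groups and did not pass in any comparison, its difference between BIO kept and fresh cells being -0.02 ± 0.10 (limma adjusted p = 0.881). At 24 h BIO raised 6 and lowered 3 in aggregates and raised 5 and lowered 5 in dispersed cells. Of all genes 17.5% rose and 12.5% fell in aggregates, and 15.3% rose and 13.4% fell in dispersed cells. The difference between BIO effects was called for 1, Chst15 (-0.95 ± 0.21, limma adjusted p = 0.0358). That difference was called for 1.57% of all genes, so nothing is read from the count.

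The labelled cell type and treatment could be read from the arrays. Six2 averaged 491 ± 73 with BIO kept and 875 ± 108 with BIO withdrawn, against 8862 ± 365 in fresh cells (SD, n = 3). The summed signal of the progenitor markers (9 of 10 measured) was 7442 to 8782 with BIO kept and 9366 to 10043 with BIO withdrawn, against 36271 to 37377 in fresh cells, and Cited1 was below background in every cultured group. With BIO kept against BIO withdrawn 3 of the 9 rose and 3 fell, where 11.1% of all genes rose and 9.3% fell. Wt1 averaged 610 with BIO kept and 3909 with BIO withdrawn, while Sall1 averaged 4299 and 3078 and Gdnf 1025 and 103 in that order. Axin2, a direct target of beta-catenin, averaged 3529 ± 411 with BIO and 351 ± 26 with DMSO in aggregates, and 4801 ± 59 with BIO and 259 ± 80 with DMSO in dispersed cells. Dispersed cells with BIO were thus high in Axin2 while Lhx1 stayed below background. At 48 h Axin2 was at 4483 ± 500 with BIO kept and 632 ± 97 with BIO withdrawn. Median signals were 87.2 to 105.99 on the 21 arrays.

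Markers of other cell types moved with some of these groups. The ureteric bud, which also expresses Lhx1, had 12 of 12 markers measured, with 9 to 11 above background by group. Gata3 was below background in 6 of 7 groups and Tfap2b in 6 of 7. The summed signal of the 12 was 2150 to 2192 with BIO kept, 2630 to 3755 with BIO withdrawn and 1483 to 2231 in fresh cells, and 1666 to 2001 with BIO against 1775 to 2120 with DMSO in aggregates at 24 h. Cdh1, the epithelial cadherin gene, made up most of the excess with BIO withdrawn, at means of 304 with BIO kept, 1469 with BIO withdrawn and 158 in fresh cells. Without it the sums averaged 1871, 1581 and 1620, and 2 of the 12 rose and 2 fell with BIO kept against BIO withdrawn, where 11.1% of all genes rose and 9.3% fell. The stroma markers (8 of 8) summed to 2183 to 2714 with BIO kept, 10431 to 11724 with BIO withdrawn and 13423 to 14643 in fresh cells. The podocyte markers (5 of 7) summed to 472 to 673, 2821 to 3245 and 2187 to 3221 in the same order, and to 379 to 629, 800 to 1115 and 955 to 1515 without Foxc2, at means of 57.1, 2041 and 1492. The loop and distal tubule markers (8 of 8) summed to 1720 to 2052, 1564 to 2000 and 776 to 985, with Slc12a3 and Kcnj1 below background in all 3. This excess over fresh cells was that of Irx3, at means of 1192, 1240 and 154, without which the sums averaged 699, 615 and 720. At 24 h the stroma markers summed to 3852 to 4075 with BIO against 14021 to 14879 with DMSO in aggregates, and to 3414 to 3686 against 12955 to 13850 in dispersed cells. The endothelial markers (6) summed to 869 to 1070 with BIO kept, 393 to 525 with BIO withdrawn and 533 to 618 in fresh cells. Flt1, at means of 354, 82.6 and 23.9, and Tek, at 260, 47.2 and 129, carried this difference, and without them the sums averaged 345, 309 and 417. The genes left out of these sums were chosen after their values were seen. The proximal tubule markers (7) summed to 605 to 695, 638 to 862 and 537 to 1054 in the same order, the leukocyte markers (6) to 726 to 866, 934 to 1510 and 1310 to 1676, and the erythroid markers (4) to 59.1 to 86.1, 70.8 to 107 and 266 to 407. The part of these cell types in the Lhx1, Lhx1os and Papss2 differences was not tested.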

How the data were processed

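RNA of 21 samples was amplified in 2 rounds and read on oligonucleotide arrays, per the labels' protocols. The deposited values are linear signal intensities of 45101 probe sets, from 0.1 to 18025.33. The software and scaling by which the authors made these intensities were not given in the sources used here. Probe sets were named from the platform annotation: 34945 had 1 symbol, 932 several, 9160 none, and 64 were controls. Values were taken as log2(value + 1) and quantile normalized, and each gene was read from its probe set with the highest mean. All 7 groups were fitted together with limma 3.58.1 in R 4.3.3 (14 residual degrees of freedom), with Benjamini-Hochberg adjustment over 18193 genes and a threshold of 0.05. Fold changes on this scale understate the change of dim genes, and 3 arrays per group limit the precision. Plots used matplotlib 3.10.9 under Python 3.11.15.

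The members and the gene lists were chosen with earlier results of these data known. The genes named were all probe sets of the 4 genes, 3 neighbours on each side, the 10 largest called positive differences between BIO effects, the 5 genes most like each member by Pearson r over 21 arrays, up to 4 called genes per list and comparison, and a few paralogs, cofactors and checks. Pax8, Ccnd1, Chst11 and genes named for comparison outside these limits were chosen after their values were seen. The fit was tested on simulated data for BIO kept against BIO withdrawn: of 50 genes planted at each size among 18193, it recovered 48% at a log2 change of 0.5, 90% at 1, 100% at 2 and 88% at -1, with 13 false calls among 176. The planted genes all had a mean level above the median, the noise was normal, and no other gene differed in that comparison. Recovery of dim genes was not simulated. Alternatives covered scaling, pseudocount, dim genes, probe set summary, samples in the fit, weights, variance prior, replicate number, control probe covariates and each array left out. The fit of only the 9 arrays of fresh cells and 48 h aggregates was added after seeing the data. For BIO kept against BIO withdrawn it gave limma adjusted p = 0.00565 for Lhx1, 0.00592 for Lhx1os and 0.0206 for Papss2. For BIO withdrawn against fresh cells it gave limma adjusted p = 0.00611, 0.000898 and 0.000181 in the same order. Papss2 with BIO kept against fresh cells had limma adjusted p = 2.7e-05.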

Additional observations from a re-analysis of the deposited data

Results flagged for a closer look

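Counted here were the 10 largest differences and the gene lists other than cell type markers, not genes named only for likeness to a member. The test was limma's test of the difference between BIO effects at 24 h, with p adjusted over all genes. By this test 11 genes beside the 4 members differed between aggregates and dispersed cells. Of these, 6 were named because this difference was among the 10 largest, so their values are a description. Lama4 differed by 3.58, Rassf6 by 2.75, Svopl by 2.74, Frat2 by 2.59, Sco2 by 2.51 and Colec11 by 2.47 on the log2 scale. Svopl in both DMSO groups and Rassf6 and Sco2 in dispersed cells with BIO were below background, so these are fitted values and not measured sizes. Frat2 averaged 46.7 in dispersed cells with BIO, close to background at 41.8, so its size is uncertain as well. The other 5 came from the gene lists. Pax8 differed by 1.29 ± 0.16 (limma adjusted p = 0.000552), with a BIO effect of 1.22 in aggregates and -0.07 in dispersed cells. Bmp2 differed by 1.87 ± 0.19 (limma adjusted p = 0.000123), with 0.98 in aggregates and -0.89 in dispersed cells. Cdh4 differed by -0.88 ± 0.18 (limma adjusted p = 0.023), with 1.86 in aggregates and 2.74 in dispersed cells. Cdh6 differed by -0.83 ± 0.16 (limma adjusted p = 0.0123), with -1.08 in aggregates and -0.24 in dispersed cells. Chst15 differed by -0.95 ± 0.21 (limma adjusted p = 0.0358), with 0.08 in aggregates and 1.03 in dispersed cells.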

How the results depend on the processing

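Across 34 alternatives each, Lhx1 and Lhx1os stayed lower with BIO kept than with BIO withdrawn and higher with BIO withdrawn than in fresh cells, and Papss2 stayed higher than in fresh cells with BIO kept and with BIO withdrawn, all past the threshold. The Lhx1 difference between BIO kept and BIO withdrawn ranged over -2.67 to -2.01 and that of Lhx1os over -2.17 to -1.53. Papss2 in BIO kept against BIO withdrawn was 0.57 (limma adjusted p = 0.299) with the mean of all probe sets, 0.96 (limma adjusted p = 0.0577) with only the arrays compared, 1.12 (limma adjusted p = 0.0543) after adjusting for the Gapdh ratio and 0.67 (limma adjusted p = 0.187) after adjusting for the actin control, and 0.80 to 1.20 as single arrays were left out. For BIO kept against fresh cells, Lhx1os passed at 0.75 with log2(value + 16), with 0.71 to 1.13 as arrays were left out, and Plcd4 at -0.91 with the deposited scaling, with -1.07 to -0.29. For BIO withdrawn against fresh cells, Plcd4 passed at -0.86 with dim genes left out, with -1.16 to -0.38. The cause of these changes was not tested. With only the arrays compared, the genes called numbered 1820 for BIO kept against BIO withdrawn, 3958 for BIO kept and 2870 for BIO withdrawn against fresh cells. With every probe set tested, 9850 were called for BIO kept against fresh cells and 8255 for BIO against DMSO in aggregates. The 5455 genes called in that contrast became 2405 with the actin covariate. The 285 genes called for the difference between BIO effects became 150 with the mean of probe sets, 545 with array weights, 120 with the actin covariate, and 171 to 314 as single arrays were left out, the fewest without replicate 1 of aggregates with BIO. Deviations from the group means had a mean r of -0.04 over 63 pairs of same-numbered arrays, against 0.02 over 126 pairs of different number. Taking deviations from the group means ties these values to each other, so they cannot decide whether the numbers pair the samples. Between BIO withdrawn and BIO kept, r was 0.12, -0.04 and 0.20 for arrays numbered 1, 2 and 3. With the replicate block, Lhx1os in BIO kept against fresh cells was 0.85 (limma adjusted p = 0.0262) and Plcd4 in BIO withdrawn against fresh cells -0.86 (limma adjusted p = 0.0424), and no other call of the 4 genes changed. Signals below 41.8 could not be told from background, which limits Plcd4 at 48 h and Lhx1 in dispersed cells.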
